A study of Mus musculus with 28 samples.

Results

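The difference in the response to joint surgery between articular cartilage and the bone beneath it was described here, 6 weeks after the operation. It was measured as the DMM effect in cartilage minus the DMM effect in bone, called the interaction below. All 6-week arrays of both tissues were taken, 14 of the 28 arrays in the series, and all 359 miRNAs with a value on each of the 28 arrays were compared. In DMM surgery the ligament that anchors the medial meniscus is severed, which leaves the knee unstable and leads to osteoarthritis. In the sham operation the ligament was exposed and left intact.

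The mice were male wild-type C57BL6 animals operated on in both knees at 10 to 12 weeks of age, and cartilage and subchondral bone of the medial tibial plateau were collected by laser microdissection. The 4 groups were cartilage after DMM (3 arrays), cartilage after sham (3 arrays), bone after DMM (4 arrays) and bone after sham (4 arrays). Each cartilage array held RNA pooled from 3 mice and each bone array RNA from 1 mouse, so an array of a pool averages over animals. By the labels both tissues were taken from one mouse, without saying which mice a pool holds, and all arrays were treated as independent. One label field calls the cartilage samples bone, whereas their source field says cartilage. The marker miR-140-3p, made from an intron of Wwp2 and characteristic of chondrocytes, separated the tissues by source field. Its mean log2 signal was 13.18 ± 0.11 (SD, n = 3) in DMM cartilage and 13.52 ± 0.01 (SD, n = 3) in sham cartilage, against 9.13 ± 0.21 and 9.22 ± 0.13 (SD, n = 4 each) in DMM and sham bone.

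Arrays within a cartilage group had a lowest pairwise Pearson correlation across miRNAs of 0.968, and within a bone group of 0.903. The median SD within a group was 0.146 in DMM cartilage, 0.194 in sham cartilage, 0.281 in DMM bone and 0.294 in sham bone, on the log2 scale. A set of 3 bone arrays of this week stood apart along the main gradient between bone arrays, the component that held 62.3% of the variance within bone groups: DMM mice 21 and 25 and sham mouse 22. Scores on this gradient ran from -9.95 to 5.21 in sham bone and from -9.16 to 2.68 in DMM bone. In cartilage they separated the groups, with -1.80 to 1.51 after DMM and 2.26 to 3.19 after sham, so values without those arrays and with the score as a covariate are given beside the leading results. Since these are bulk samples, fewer cells of a type and less RNA per cell cannot be told apart.

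A miRNA is a short RNA that guides Argonaute proteins to messenger RNAs, chiefly by pairing through its seed, bases 2 to 8 from the 5′ end, and lowers the output of those messages. Most are cut from a hairpin precursor with a 5p arm and a 3p arm, which have different seeds and so different targets. Cartilage contains no blood vessels in health, whereas subchondral bone holds marrow and vessels.

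Sequences are shown for the miRNAs on which the results turn, as listed by RefSeq for mouse build GRCm38.p6, where 297 of the 359 measured miRNAs had an entry. The first is the miRNA with the second largest interaction, with its seed in capitals. It lies at chr11:102999896-102999916 on the minus strand, inside the spans of Dcakd and Gm34620. No other measured miRNA with a sequence shares this seed, and 14 of its 21 bases are G.
miR-6931-5p: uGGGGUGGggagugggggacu

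The next 5 had large positive interactions without passing the test, and each contains the repeat UGUGUG, here in capitals. In the order printed they lie at chr5:64970328-64970350 (plus strand, within Fam114a1 and Tlr6), chr5:82798964-82798986 (minus strand, in no listed gene), chr17:25831406-25831427 (minus strand, within Jmjd8 and Stub1), chr4:56895232-56895252 (minus strand, within Tmem245) and chr3:115979905-115979924 (plus strand, within Slc30a7).
miR-574-5p: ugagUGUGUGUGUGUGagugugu
miR-1187: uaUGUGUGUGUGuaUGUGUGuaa
miR-3082-5p: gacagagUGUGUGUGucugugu
miR-32-3p: caauuuagUGUGUGUGauauu
miR-669n: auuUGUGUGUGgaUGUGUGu

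The miR-15/16 family is shown because its 5p arms and some of its 3p arms lay on opposite sides of 0. The 5p arms share the seed AGCAGCA, in capitals, and the seeds of the 3p arms, also in capitals, differ. Of these, miR-15a lies in Dleu2 on chromosome 14, miR-15b within Smc4 on chromosome 3, and miR-195a at chr11:70235062-70235121 on the plus strand, from the first base of its 5p arm to the last of its 3p arm.
miR-15a-5p: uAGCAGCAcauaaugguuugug
miR-15b-5p: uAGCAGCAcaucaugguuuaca
miR-195a-5p: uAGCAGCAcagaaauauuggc
miR-15a-3p: cAGGCCAUacugugcugccuca
miR-195a-3p: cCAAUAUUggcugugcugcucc

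Among the most negative interactions were miRNAs of blood cells, shown with the seed in capitals. miR-451a lies at chr11:78073186-78073207, and miR-223-3p at chrX:96242884-96242905, both on the plus strand.
miR-451a: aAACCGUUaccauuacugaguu
miR-223-3p: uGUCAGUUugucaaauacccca

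Of 359 miRNAs, 2 responded to DMM differently in cartilage than in bone, 0.557% of those tested with limma (threshold: adjusted p of 0.05). Both had a positive interaction and were higher after DMM in cartilage. These were miR-5099 and miR-6931-5p, high-numbered entries of the miRNA catalogue for which no established role is described here. No miRNA passed in the other direction. At an unadjusted p under 0.05 there were 13 miRNAs, 10 with a positive and 3 with a negative interaction, and the third smallest adjusted p was 0.772.

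miR-5099 had log2 signals of 7.44, 7.37 and 7.13 in the 3 DMM cartilage pools and of 5.91, 5.78 and 5.83 in the 3 sham pools. In bone it had 5.77, 5.62, 6.39 and 5.92 in DMM mice 5, 6, 21 and 25, and 6.01, 6.62, 6.35 and 5.89 in sham mice 10, 12, 22 and 26. All DMM cartilage pools lay above every other array of the week, and the bone groups overlapped. The sham cartilage values, from 5.78 to 5.91, were near the low end of the signals, and the bone values ran from 5.62 to 6.62. The means were 7.32 ± 0.16 and 5.84 ± 0.07 (SD, n = 3 each) in DMM and sham cartilage and 5.92 ± 0.33 and 6.22 ± 0.33 (SD, n = 4 each) in bone. The DMM effect was thus 1.47 ± 0.18 (SE) in cartilage and -0.29 ± 0.16 (SE) in bone. The interaction was 1.77 ± 0.24 (SE), 95% interval 1.27 to 2.27, a 3.41-fold difference between the effects with a limma adjusted p of 5.18e-05.

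miR-6931-5p had log2 signals of 10.20, 10.03 and 9.61 in DMM cartilage and of 8.09, 8.60 and 7.88 in sham cartilage. In bone it had 8.35, 8.00, 8.40 and 8.03 after DMM and 7.88, 8.10, 8.42 and 8.12 after sham, in the same order of mice. Again the DMM cartilage pools were above all other arrays and the bone groups overlapped. The means were 9.95 ± 0.30 and 8.19 ± 0.37 (SD, n = 3 each) in DMM and sham cartilage, and 8.19 ± 0.21 and 8.13 ± 0.22 (SD, n = 4 each) in DMM and sham bone. The effect was 1.76 ± 0.21 (SE) in cartilage and 0.06 ± 0.18 (SE) in bone. The interaction was 1.70 ± 0.28 (SE), 95% interval 1.12 to 2.28, or 3.25-fold, with a limma adjusted p of 5.66e-04.

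**Figure D1:**
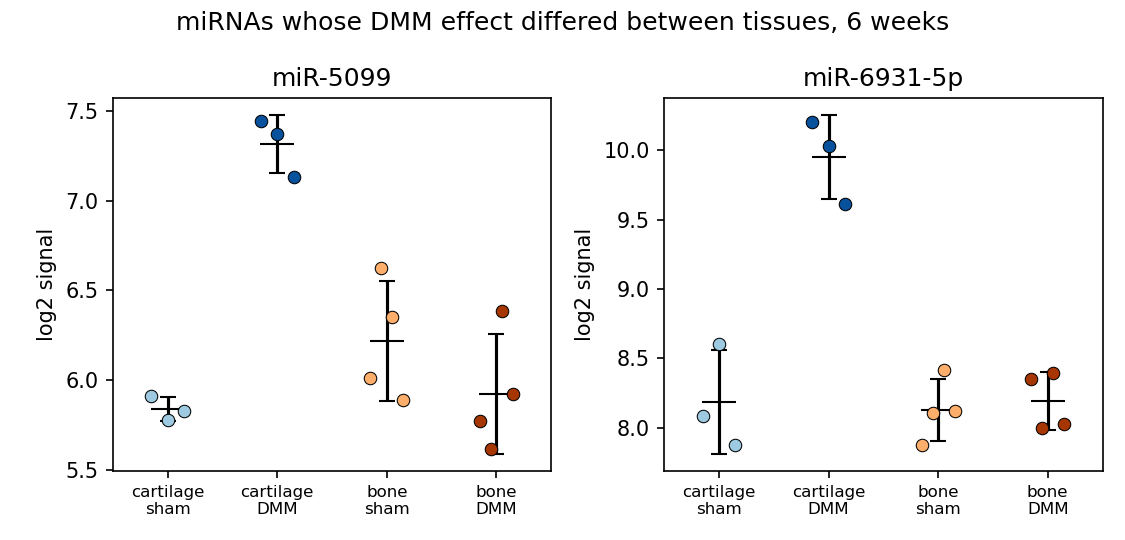
Log2 signal (vertical axis) of miR-5099 and miR-6931-5p on each 6-week array, by tissue and operation; points are arrays and bars group means with SD. The 3 DMM cartilage pools sit at 7.13 to 7.44 and at 9.61 to 10.20, above the arrays of the other 3 groups.

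Both calls held without the 3 bone arrays that stood apart, with interactions of 1.95 (limma adjusted p 2.53e-05) for miR-5099 and 1.62 (0.00837) for miR-6931-5p. With the gradient score as a covariate they were 1.74 (1.08e-05) and 1.65 (6.26e-05). By size of their weight in the gradient these miRNAs ranked 272nd and 226th of 359. The spread behind these p-values is that of pools for cartilage and of single mice for bone, joined in 1 estimate.

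At 1 week after surgery, measured in other animals, miR-5099 had an interaction of 0.50 ± 0.24 (SE), from effects of 0.41 in cartilage and -0.08 in bone. The interaction at 6 weeks exceeded it by 1.27 ± 0.34 (SE), a limma p of 0.00107 before adjustment that did not pass after it, with an adjusted p of 0.383. The adjusted p of this difference was 0.0475 after quantile normalization and 0.0468 without DMM bone mouse 21, and up to 0.964 under the other alternatives. miR-6931-5p had a larger interaction at 1 week, 2.41 ± 0.28 (SE), from 2.59 in cartilage and 0.18 in bone. The change from week 1 to week 6 was -0.71 ± 0.40 (SE), with an adjusted p of 0.999. Over all 359 miRNAs, 0 changed their interaction between the weeks by limma after adjustment, and 3 had an unadjusted p under 0.05.

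In the fit to all arrays the DMM effect passed in cartilage for 2 of 359 miRNAs (0.557%), the same miR-5099 and miR-6931-5p, each with a limma adjusted p of 4.74e-06. In bone it passed for 0 of 359 (0%) by limma, and 3 had an unadjusted p under 0.05. These were miR-1971 (0.52), miR-6984-3p (0.54) and miR-101c (-0.74), each with an adjusted p of 0.998. Without the 3 bone arrays that stood apart 4 miRNAs passed in bone and 36 in cartilage.

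Effects in cartilage ran from -1.34 to 1.76 and those in bone from -0.74 to 0.65. In size, 15 miRNAs reached 1 or more on the log2 scale in cartilage and 0 in bone, with a median SE of 0.24 and 0.20. The DMM arrays lay entirely above the sham arrays in cartilage for 73 miRNAs (20.3%) and entirely below for 53 (14.8%). In bone 1 miRNA, miR-6368, lay entirely above (0.279%) and 1, miR-101c, entirely below (0.279%), where more arrays per group make such a separation rarer.

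When each tissue was fitted apart, with its own estimate of spread, cartilage had 40 higher miRNAs (11.1%) and 18 lower ones (5.01%). Of these 58, the DMM effect of 51 had the same sign in bone. Their median size was 0.63 in cartilage and 0.14 in bone, as a description only, since they were chosen on the cartilage values. The interaction passed for 2 of the 58. For the rest the data show neither a difference between the tissues nor equal effects: the median 95% interval of an interaction reached 0.64 to either side, about the size of those cartilage effects.

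Across all 359 miRNAs the effects in the tissues had a Pearson correlation of 0.36 and a Spearman correlation of 0.40, and 241 had the same sign. The points share arrays within a tissue, and the labels place both tissues in the same mice. The interactions had a median of -0.02 with quartiles of -0.23 and 0.21, and 169 were above 0. Values of at least 1 were reached by 6 miRNAs and of at most -1 by 4. The first were miR-5099, miR-6931-5p, miR-6918-5p, miR-32-3p, miR-1187 and miR-3082-5p, and the others miR-451a, miR-223-3p, miR-494-3p and miR-6354.

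**Figure D2:**
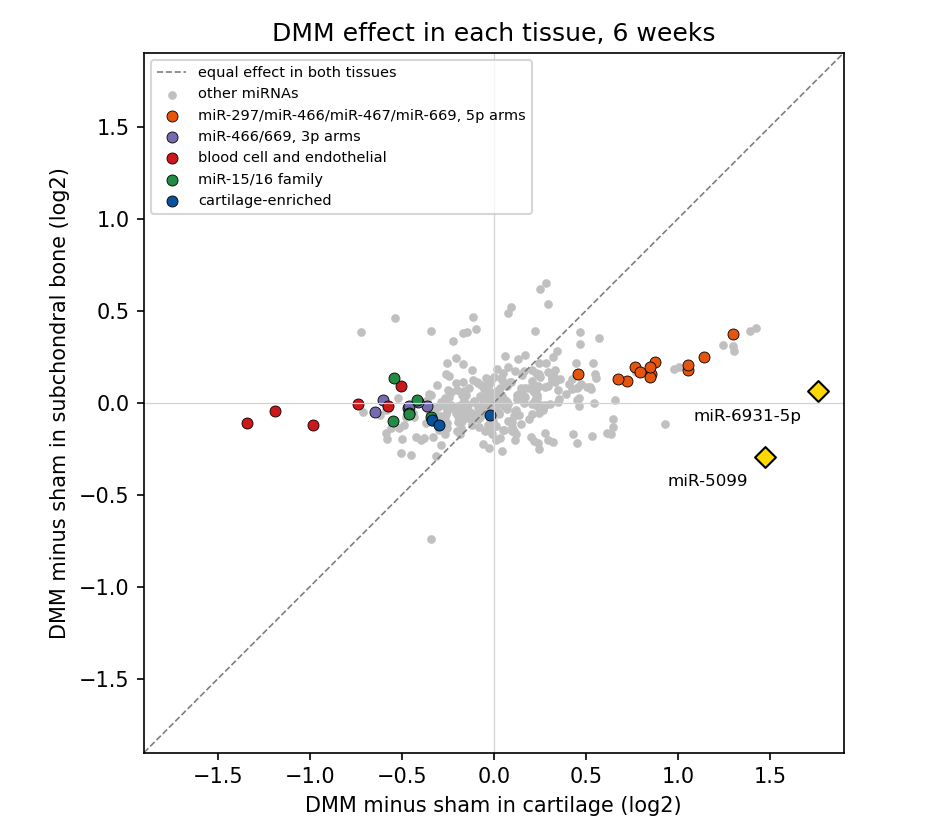
DMM minus sham in cartilage (horizontal axis, log2) against DMM minus sham in subchondral bone (vertical axis, log2) for the 359 miRNAs at 6 weeks. Effects span -1.34 to 1.76 in cartilage and -0.74 to 0.65 in bone, and miR-5099 and miR-6931-5p lie farthest to the right with bone effects of -0.29 and 0.06.

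Many of the remaining large positive interactions belonged to 2 kinds of miRNA, with no member in common as counted here. One was the 5p arms of the miR-297, miR-466, miR-467 and miR-669 families, rodent miRNAs most of which lie in a large cluster within an intron of the Polycomb gene Sfmbt2. The 2 kinds are not separate, since miR-669n and miR-466j, of these families but named without an arm, contain the repeat UGUGUG of the other kind. That repeat was searched only in the 297 miRNAs with a sequence, so any 5p arm without one could not be counted. All 13 measured 5p arms had an interaction above 0, from 0.30 to 0.92, with a median of 0.66 against -0.02 over all miRNAs. None of the 13 passed, and 2, miR-467c-5p (0.71) and miR-466f-5p (0.66), had an unadjusted p under 0.05 by limma. Their median effect was 0.85 in cartilage and 0.18 in bone. In cartilage the DMM pools lay above the sham pools for all 13, where 20.3% of all miRNAs did so. In bone this held for 0 of the 13 and for 0.279% of all miRNAs. They belong to families of closely related sequences and are not 13 independent measurements. All 13 had a negative weight on the gradient between bone arrays, as had 195 of all 359 miRNAs. Their median interaction was 0.58 with the gradient score as a covariate, 0.75 without the 3 bone arrays that stood apart, and 0.30 with array weights. Leaving out 1 array gave medians from 0.37 (without sham bone mouse 22) to 0.83 (without sham cartilage pool 1).

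miR-466i-5p, the 5p arm with the largest interaction, had log2 signals of 12.68, 12.92 and 12.22 in DMM cartilage and of 11.61, 11.21 and 11.10 in sham cartilage. In bone it had 12.71, 12.65, 13.66 and 13.20 after DMM and 11.87, 12.87, 13.88 and 12.10 after sham. The cartilage groups did not overlap, whereas the bone groups did and each contained 1 or more of the high arrays 21, 25 and 22. Its interaction was 0.92 ± 0.57 (SE), with effects of 1.30 in cartilage and 0.37 in bone. miR-669l-5p (0.89) and miR-466m-5p (0.88) followed.

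The 3p arms of these families lay on the other side. All 6 measured 3p arms had an interaction below 0, from -0.62 to -0.34, with a median of -0.44, a cartilage median of -0.47 and a bone median of -0.02. None passed, and in cartilage DMM and sham pools overlapped for all 6. The arms of a hairpin name were on opposite sides in these examples: miR-466i had 0.92 for its 5p arm and -0.45 for its 3p arm, and miR-466f had 0.66 and -0.34. Of 5 members without an arm in their name, miR-669n (0.99) and miR-466j (0.71) were above 0, and miR-466q (-0.54), miR-467f (-0.54) and miR-466g (-0.29) below.

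The other kind, chosen after the sequences had been set beside the values, was miRNAs that contain UGUGUG, the repeat shown in capitals above. It was searched on the miRNA strand alone and found in 12 of the 297 miRNAs with a sequence (4.04%). Their median interaction was 0.80, against -0.04 for the 285 without it, and 11 of 12 were above 0, the exception being let-7b-5p (-0.28). None passed. The median effect was 0.99 in cartilage and 0.19 in bone. DMM arrays lay above all sham arrays for 11 of 12 in cartilage, against 20.3% of all miRNAs. In bone they did so for 0 of 12, against 0.279% of all miRNAs. Per array, the mean log2 signal of the 12 ran from 8.32 to 8.77 in DMM cartilage and from 7.44 to 7.94 in sham cartilage, without overlap. It ran from 8.70 to 9.64 in DMM bone and from 8.54 to 9.88 in sham bone. Since the repeat was chosen with these values in view, the medians, counts and means of the 12 are a description only. A search for GGGG, the repeat of miR-6931-5p, gave 68 of 297 miRNAs (22.9%) with a median of 0.05, against -0.05 for the rest.

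miR-574-5p, from an intron of Fam114a1, was measured at 11.32, 11.61 and 10.83 in DMM cartilage and at 10.22, 9.77 and 9.86 in sham cartilage, without overlap. In bone it was at 11.41, 11.33, 12.33 and 11.92 after DMM and at 10.61, 11.51, 12.54 and 10.85 after sham, with overlap. miR-32-3p, the passenger arm of the miR-32 hairpin in Tmem245, had 7.92, 8.43 and 7.86 in DMM cartilage and 7.28, 6.64 and 6.37 in sham cartilage. Its interaction was 1.02 ± 0.57 (SE), that of miR-1187 1.02, that of miR-3082-5p 1.00 and that of miR-669n 0.99. These miRNAs follow the gradient between bone arrays: 11 of the 12 with UGUGUG had a negative weight on it, against 195 of all 359. With the score as a covariate their median was 0.66, and 0.41 with array weights. Leaving out 1 array gave medians from 0.45 (without sham bone mouse 22) to 1.03 (without sham cartilage pool 1). The part of the gradient in these interactions was not tested further.

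The remaining positive miRNAs at an unadjusted p under 0.05 were miR-6918-5p (1.05 ± 0.46, SE), miR-7682-3p (0.81), miR-6904-5p (0.78), miR-195a-3p (0.61), miR-3101-3p (0.55) and miR-346-5p (0.48 ± 0.20, SE), each with a limma adjusted p of 0.772. miR-7218-5p (0.78) and miR-7030-5p (0.42) came next. Cartilage signals of miR-346-5p, from 5.27 to 5.94, and of miR-3101-3p, from 5.08 to 5.85, were near the low end. In miR-6918-5p the cartilage groups were barely apart, with 7.27, 7.83 and 7.26 after DMM and 7.24, 6.31 and 6.01 after sham. Of the 12 leading positive miRNAs, 9 had DMM pools entirely above sham pools in cartilage, where 20.3% of all miRNAs did. For all 12 the bone groups overlapped, as for nearly all miRNAs, with 0.279% entirely above and 0.279% entirely below. The 12 were chosen on an interaction that uses these values, so the counts are a description only. As a group, the 100 miRNAs numbered 6000 and above, which entered the catalogue late, had a median of 0.05, 1 of them passing (miR-6931-5p).

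**Figure D3:**
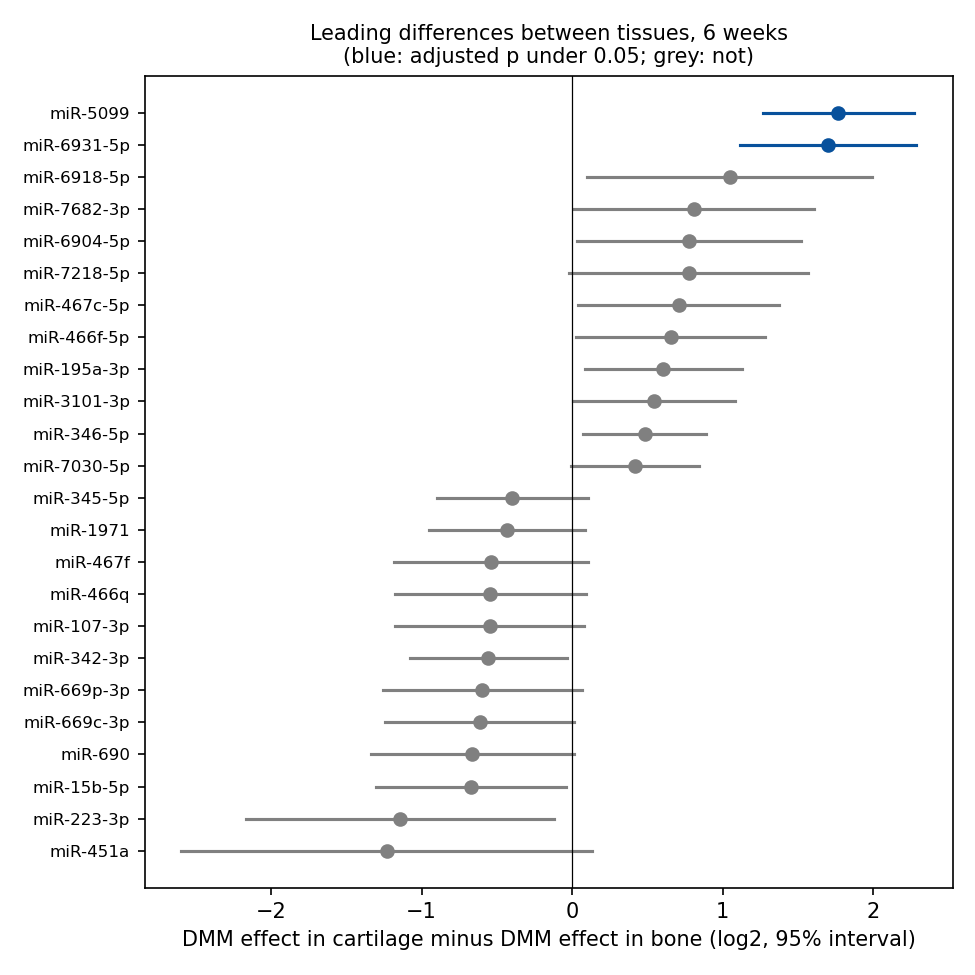
Interaction (horizontal axis, log2) with its 95% interval for the 12 leading miRNAs in each direction, blue where the limma adjusted p passed and grey where it did not. The 2 blue intervals begin at 1.27 and 1.12, and the other 22 miRNAs did not pass.

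Negative interactions were led by miRNAs of blood cells, none of which passed. miR-451a, the dominant miRNA of red blood cells, had log2 signals of 7.35, 8.35 and 7.67 in DMM cartilage and of 8.23, 9.07 and 10.09 in sham cartilage. In bone it was far higher, at 12.91, 13.34, 12.50 and 13.26 after DMM and 13.46, 12.85, 13.04 and 13.09 after sham. DMM pools tended to the lower values in cartilage, with overlap, and the bone groups overlapped widely. The effect was -1.34 ± 0.50 (SE) in cartilage and -0.11 ± 0.43 (SE) in bone, an interaction of -1.23 ± 0.66 (SE).

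miR-223-3p, which marks neutrophils and other myeloid cells, had 6.69, 7.59 and 7.08 in DMM cartilage and 7.58, 8.34 and 9.01 in sham cartilage, overlapping at 7.59 and 7.58. In bone it had 12.50, 13.14, 11.91 and 12.44 after DMM and 12.80, 12.49, 12.51 and 12.37 after sham. Its interaction was -1.14 ± 0.50 (SE), 95% interval -2.17 to -0.12, the smallest unadjusted p among negative interactions at 0.030 by limma, with an adjusted p of 0.772.

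The other markers of blood and vessels pointed the same way. Of the white cell markers, miR-142a-3p had -0.86 and miR-342-3p, from an intron of Evl, -0.56. The red cell marker miR-486a-5p had -0.59 and the endothelial miR-126a-3p, from an intron of Egfl7, -0.73. All 6 measured markers of these lists were below 0. Their mean log2 signal per array ran from 6.19 to 6.76 in DMM cartilage and from 6.79 to 7.93 in sham cartilage, without overlap, and from 9.97 to 10.8 in DMM bone and from 10.3 to 10.6 in sham bone.

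Sham cartilage pool 3 was the highest cartilage array for miR-451a, miR-223-3p, miR-142a-3p and miR-126a-3p. Without it the interactions were -0.75 for miR-451a, -0.80 for miR-223-3p, -0.38 for miR-142a-3p, -0.54 for miR-342-3p and -0.37 for miR-126a-3p. The positive calls were measured without that pool too, with 1.76 for miR-5099 (limma adjusted p 2.98e-04) and 1.54 for miR-6931-5p (0.00461). The mean of the 6 markers was thus lower in the DMM pools than in the sham pools, by values that nearly met (6.76 and 6.79). This difference was not tested as a group, no marker passed in the interaction, and its part in the other interactions was not tested.

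**Figure D4:**
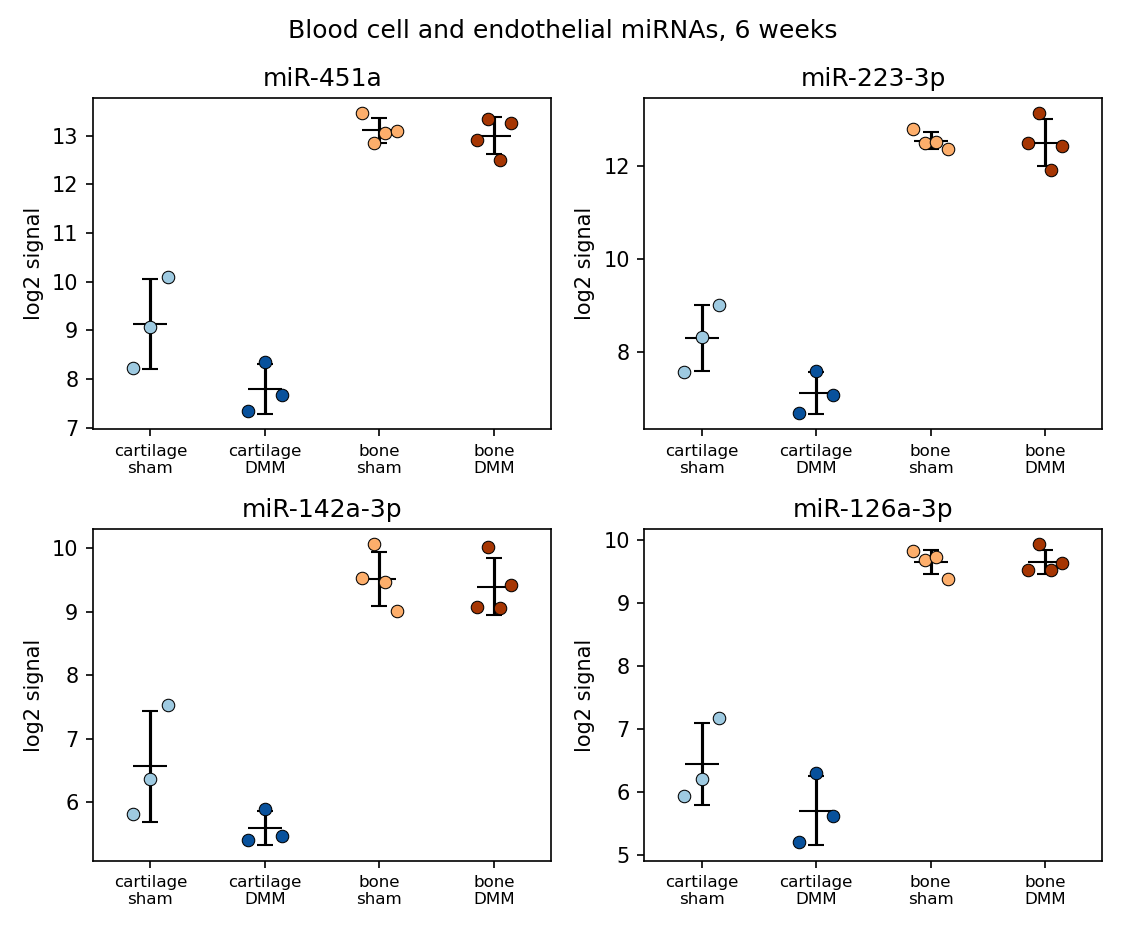
Log2 signal (vertical axis) of miR-451a, miR-223-3p, miR-142a-3p and miR-126a-3p on each 6-week array, by tissue and operation; points are arrays and bars group means with SD. Bone arrays lie well above cartilage arrays, for miR-451a at 12.50 to 13.46 against 7.35 to 10.09, and the highest cartilage value of each miRNA is in sham pool 3.

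In the miR-15/16 family, which represses cyclins and Bcl2, all 6 measured 5p arms with the seed AGCAGCA had an interaction below 0, with a median of -0.42 and a range of -0.67 to -0.27. None passed, and miR-15b-5p had an unadjusted p under 0.05. It had 8.30, 8.61 and 8.66 in DMM cartilage, a mean of 8.52 ± 0.19 (SD, n = 3), against 9.06 ± 0.06 (SD, n = 3) in sham cartilage. In bone it had 11.36, 11.92, 10.80 and 11.08 after DMM and 11.63, 10.60, 11.09 and 11.30 after sham. The cartilage groups were apart and the bone groups overlapped, giving -0.54 in cartilage, 0.13 in bone and an interaction of -0.67 ± 0.31 (SE). In 4 of the 6 the DMM pools were entirely below the sham pools in cartilage, where 14.8% of all miRNAs were.

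The 4 measured 3p arms of the same hairpins, looked up after the values had been seen, had interactions above 0. They were miR-195a-3p (0.61 ± 0.25, SE), miR-16-1-3p (0.42), miR-15a-3p (0.37) and miR-16-2-3p (0.19). miR-195a-3p had 6.45, 6.81 and 6.53 in DMM cartilage and 6.27, 5.72 and 5.49 in sham cartilage, with no overlap. In bone it had 6.38, 6.31, 6.40 and 6.62 after DMM and 6.22, 6.10, 6.76 and 5.98 after sham, with overlap. Its partner arm miR-195a-5p had -0.41. None of the 4 passed, and the levels of these 3p arms were low.

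Among the remaining negative miRNAs, miR-690 (-0.66), miR-669c-3p (-0.62), miR-669p-3p (-0.60), miR-107-3p (-0.55), miR-466q and miR-467f (-0.54 each), miR-1971 (-0.43) and miR-345-5p (-0.40) completed the leading 12. In miR-1971 the larger effect was in bone, with 0.52 there and 0.09 in cartilage. miR-107-3p, which shares its seed GCAGCAU with miR-103-3p (-0.25) and is encoded in a pantothenate kinase gene, had -0.62 in cartilage and -0.07 in bone. Of the 12, 3 had DMM pools entirely below sham pools in cartilage, where 14.8% of all miRNAs did. These 12 too were chosen on an interaction that uses these values. miR-494-3p (-1.11 ± 1.17, SE), of the imprinted Dlk1-Dio3 cluster, was large in value but not in the leading 12, since its arrays ran from 8.61 to 11.14 in cartilage and from 9.77 to 13.09 in bone.

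None of the 3 cartilage markers passed in the interaction. miR-140-3p had -0.34 in cartilage and -0.09 in bone, an interaction of -0.25 ± 0.27 (SE). In cartilage its DMM pools, at 13.12, 13.13 and 13.31, were all below the sham pools, at 13.52, 13.53 and 13.51. miR-140-5p had an interaction of -0.18 and miR-455-3p, encoded in Col27a1, of 0.05. The medians of the Sfmbt2 arms, the blood and endothelial markers and the miR-15/16 5p arms kept their sign under quantile normalization and centring on the 75th percentile. The median of the 3 cartilage markers was -0.18, and it turned to 0.08 after quantile normalization, so the group had no direction that held across scalings.

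Of 5 inflammation-linked miRNAs 4 were above 0 and none passed. miR-21a-5p, raised in many injured tissues, had 8.37, 9.43 and 8.95 in DMM cartilage and 7.94, 8.03 and 8.84 in sham cartilage, an interaction of 0.74 ± 0.50 (SE). miR-155-5p, induced in activated immune cells, had 0.50, with 0.25 in cartilage and -0.25 in bone. Its DMM pools, at 5.92, 5.99 and 5.86, were above the sham pools, at 5.68, 5.63 and 5.71, near the low end of the signals. miR-146a-5p and miR-146b-5p, which dampen NF-kappaB signalling, had 0.22 and -0.19, and miR-212-3p 0.19. The median was 0.22. miR-210-3p, induced by hypoxia-inducible factor, had an interaction of -0.42, with -0.59 in cartilage and -0.16 in bone.

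Muscle and mesenchymal miRNAs also did not pass. Of 3 muscle miRNAs, miR-206-3p had 0.45, miR-499-3p 0.34 and miR-208a-5p 0.05. In cartilage miR-206-3p ran from 5.13 to 5.94 and miR-499-3p from 5.14 to 5.83, near the low end of the signals. miR-206-3p contains UGUGUG and was counted among those 12 miRNAs as well. Of 5 mesenchymal miRNAs, miR-199b-5p (-0.57) and miR-199a-3p (-0.55) were lowest, miR-214-5p was at 0.35, and the median was -0.15. The 4 miRNAs listed for bone cells had a median of 0.00, and no epithelial miRNA of the list was measured.

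The broadly expressed families had smaller values, and none of their members passed. The medians were -0.40 for miR-103 and miR-107 (2 members), -0.28 for the Hox cluster miRNAs miR-10 and miR-196 (4), -0.26 for miR-30 (8), -0.21 for the clusters of miR-17 and its paralogs (8) and -0.21 for let-7 (11). The let-7 median was 0.08 after quantile normalization. In the miR-17 group all 8 members, which promote cell growth, were below 0, from -0.36 to -0.04. In let-7, which holds back growth genes such as Hmga2, 7 of 11 were below 0, led by let-7d-5p (-0.38), and let-7j (0.37) was highest. Medians of miR-29 (-0.08), miR-181 (-0.08), miR-221 with miR-222 (-0.05), miR-23 with miR-24 and miR-27 (-0.04), miR-99 with miR-100 and miR-125 (-0.03) and the 6 Dlk1-Dio3 miRNAs (-0.08) were close to that of all miRNAs, which itself was 0.02 after centring on the 75th percentile.

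**Figure D5:**
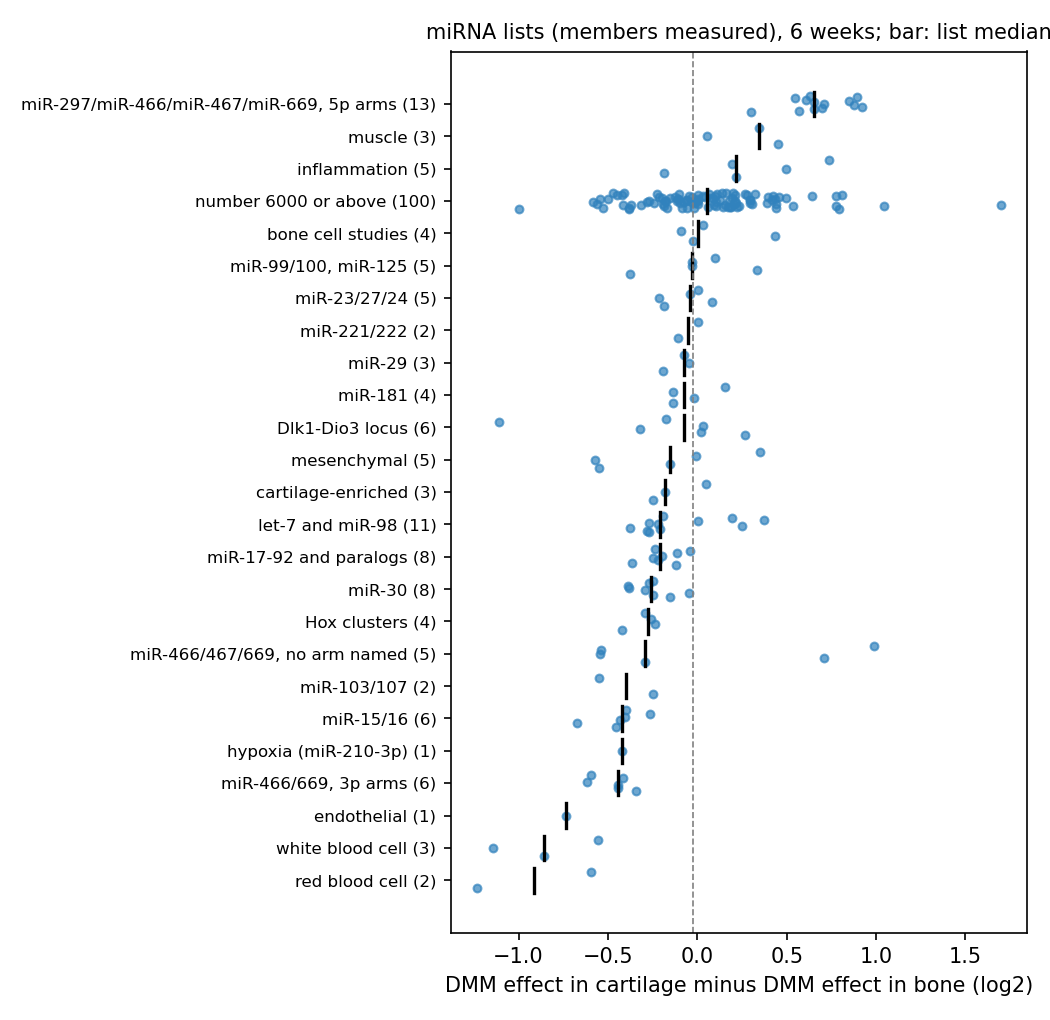
Interaction (horizontal axis, log2) of each measured member of the miRNA lists, with the list median as a bar and the median of all 359 miRNAs as a dashed line. The 13 5p arms of the Sfmbt2 families lie at 0.30 to 0.92, and the blood cell, endothelial and miR-15/16 members all lie below 0, in the values as deposited.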

How the data were processed

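Values of small RNA on Agilent mouse miRNA arrays (release 21, from 70 ng of total RNA per the labels' protocols) were used as the authors deposited them, taken as log2 signals from their range of 4.08 to 16.7. The submitters' processing notes name limma 3.20.9; for background correction, normalization, row filter and any joint scaling of the tissues, the method was not given in the sources used here. A level in cartilage set beside a level in bone carries that limit, whereas each DMM effect is taken within a tissue. Of 569 miRNAs in the table, 438 had a value on every cartilage array, 490 on every bone array and 359 on all 28. There were 0 unused columns of sample values.

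A model of 8 group means (tissue, operation, week) was fitted to all 28 arrays with limma 3.58.1 (lmFit, eBayes) in R 4.3.3. P-values were two-sided and adjusted by Benjamini-Hochberg over 359 miRNAs, with a threshold of 0.05. Errors of effects are SE and the number of arrays limits the precision. The fit was also run on simulated data with noise drawn independently for each miRNA and array. That noise leaves out the gradient between bone arrays, so the run does not cover it. The text names the miRNAs past the threshold and then those with the smallest unadjusted p, up to 12 in each direction, the 3 largest of a list, and the cell type markers. The arrays, lists and tests were chosen with earlier results of these data known, the lists come from general knowledge, and no list was tested as a set. Alternatives were other scalings, priors, weights, sets of arrays, blocks, a gradient covariate, and leaving out each 6-week array in turn. Same-numbered cartilage pools did not deviate together, and the numbers were not treated as pairs. Correlations between differently numbered pools ran from -0.34 to 0.67. Deviations from the mean of 3 pools cancel within a group, so such correlations cannot exclude pairing.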

Additional observations from a re-analysis of the deposited data

Results flagged for a closer look

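The difference of the DMM effect between cartilage and bone was tested directly and passed for miR-5099, with 1.77 on the log2 scale, and for miR-6931-5p, with 1.70. The 44 miRNAs described were each checked in both bone groups of 4 arrays (88 groups). In 2 of these 88 a single array lay far from the other 3. Chance gives about 1 in 20 such groups, so 2 of 88 is no more than chance gives. miR-466f-5p was high in sham bone mouse 22, at 7.20, and miR-669c-3p was high in sham bone mouse 26, at 5.70. Mouse 22 is an array that stood apart on the gradient between bone arrays.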

How the results depend on the processing

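miR-5099 passed in the interaction under all 25 alternatives in which it was tested, with 1.47 to 1.95 and limma adjusted p of 4.15e-06 to 0.00759, and miR-6931-5p under all 26, with 1.47 to 1.91 and 6.26e-05 to 0.00837. The number of miRNAs passing in the interaction was 2, and 2 without any 1 array of 6 weeks. It was 32 (6 higher, 26 lower) with array weights, whose estimation stopped before converging, and 1 of 180 with low rows left out, which removed miR-5099. With array weights miR-346-5p (0.46, adjusted p 0.0215) and miR-690 (-1.09, 0.00511) also passed. No leading miRNA changed the sign of its interaction. The replicate block in cartilage left 2 passing; the correlations of same-numbered pools were -0.51, -0.43 and 0.00. The number passing in cartilage, 2, was 69 with weights per tissue, 58 with tissues fitted apart, 154 with array weights, 11 after quantile normalization, 21 after centring on the 75th percentile, 1 with low rows left out, 20 with an animal-number block in bone, 21 with the gradient covariate and 36 without the 3 bone arrays that stood apart, an alternative chosen after seeing the data. Leaving out 1 array gave 2 to 43 (43 without sham cartilage pool 1, 19 without sham bone mouse 22). The 0 passing in bone became 95 with array weights and 4 without those 3 arrays, and the 0 passing in the change between weeks became 1 after quantile normalization and 0 to 1 without 1 array. The causes were not tested. Array scanner background was not used here, so how far low signals lie above it is unknown.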
